A study of Mus musculus with 15 samples.

Results

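Chemokines, interleukins and their receptors were represented by 35 genes on the arrays, of 9834 named genes in all. The members were taken by symbol: every gene whose current symbol begins with Ccl, Cxcl, Ccr, Cxcr or Il and continues with a digit. They comprise 15 chemokines, 3 chemokine receptors, 6 interleukins, 2 secreted inhibitors, 8 interleukin receptor chains and Il4i1, an enzyme that shares only the symbol. In total 44 probes stood for them, and 6 members had several probes.

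The RNA came from treated mouse cells labelled as a lymphoid ES cell line, and was set against RNA of the untreated line on two-colour cDNA arrays. ES is read here as embryonic stem, which the labels do not spell out. Treated RNA carried Cy5 on 8 arrays, numbered 1 to 8, and Cy3 on 7 dye swaps, numbered 9 to 15. The labels give no treatment, dose, duration or genetic background, and the number of cultures behind the arrays is not stated, so p-values measure the spread between arrays, which may be technical. Protocol wording on organs and on a control pool of animals does not match a cell line; if 1 pool of control RNA served all arrays, its own spread is left out.

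Each value is the deposited log2 ratio of an array's 2 channels, so 0 is no difference and 1 a doubling. A value above 0 is read here as more RNA in treated cells. This reading rests on 1999 placeholder values for empty channels and is not stated in the labels. They were above 0 on all arrays with treated RNA in Cy5 and below 0 on all swaps. The same signs would arise from unturned ratios if the untreated channel were the empty one. Over probes, arrays of opposite orientation correlated at a median r of -0.058, against 0.091 within the Cy5 arrays and 0.034 within the swaps. The direction is thus not settled. With the swaps turned, the treatment estimate is instead 0.5 times the difference between orientations, and this turned estimate is given for the members and gene groups whose direction or order is described. A ratio holds no level, so whether a member was expressed in the line cannot be read from it, and the lymphoid or pluripotent identity of the line could not be checked by marker levels. Fewer cells of a type and less RNA per cell cannot be told apart in such RNA.

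Chemokines are small secreted proteins that guide cells along concentration gradients by binding receptors coupled to G proteins. CC and CXC chemokines are named for the spacing of their first cysteines and pair mostly with CCR and CXCR receptors. Most interleukins signal through receptor chains that recruit JAK kinases and STAT factors, or, in the IL-1 and IL-17 branches, adaptors leading to NF-kB. In lymphoid cells these ligands direct homing to thymus, lymph node and gut and sustain precursor growth.

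No member passed limma's test of the treatment estimate, the mean of both dye orientations (Benjamini-Hochberg adjusted p under 0.05 over 9720 genes). All 35 members had enough values to be fitted, 26 of them on all 15 arrays and none on fewer than 12. Over all genes, 4 passed, which is 0.0412%. At an unadjusted p under 0.05 there were 3 members, Ccl25 and Ccl6 below 0 and Ccl8 above 0, which is 8.57% of the members against 7.02% of all genes. By direction, 3.94% of all genes were above 0 and 3.08% below 0 at that threshold. The smallest adjusted p of a member was 0.450 in limma. After turning the swaps, also no member passed, where 2.61% of all genes did, and the smallest adjusted p of a member was 0.0613 in limma.

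The members lay on both sides of 0. Of the 35, 17 had an estimate above 0 and 18 below, against 52% of all genes above 0. Their median was -0.019, against 0.0054 over all genes, and the estimates spanned -0.37 (Ccl27a) to 0.69 (Il24). With the swaps turned, 18 were above 0, against 49.2% of all genes, the median was 0.0053, and the estimates spanned -0.53 (Il34) to 0.91 (Il24). The sign of 19 of 35 members depended on this reading. No member had the same sign on every array that measured it; over all genes 0.0617% did. On single arrays the median of the members lay between -0.095 and 0.044, with 13 to 22 members above 0.

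**Figure D1:**
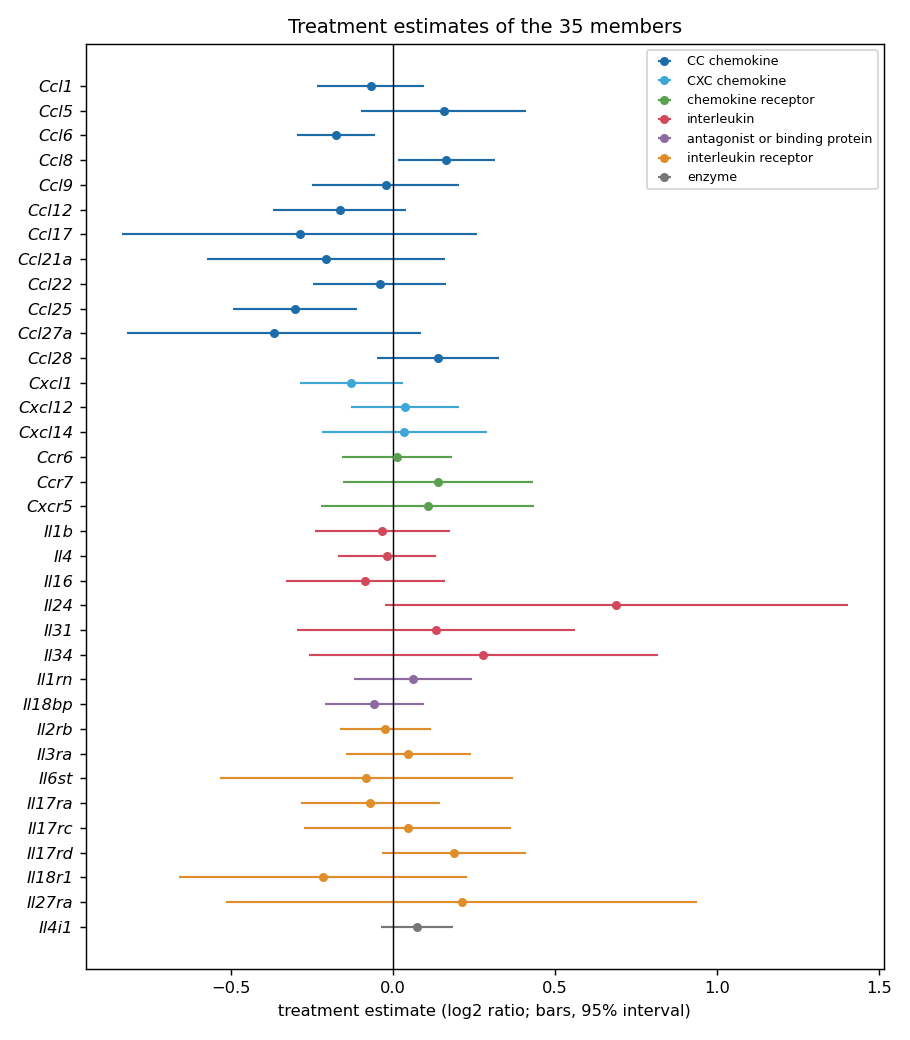
Treatment estimate of each of the 35 members (x axis, log2 ratio) with its 95% interval from limma, one row per gene, coloured by role. As the ratios were read here, only the intervals of Ccl25, Ccl6 and Ccl8 leave out 0. That of Il24 is among the widest, from -0.025 to 1.40.

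The 95% intervals give the precision of the fit as the ratios were read here, over a spread between arrays that may be technical. They set no bound on an effect between separately treated cultures. For 26 of 35 members the 95% interval lay within -0.5 and 0.5, or 74.3%, against 84.3% of all genes, and for 34 it lay within -1 and 1. The standard errors of the members ranged from 0.052 (Il4i1) to 0.34 (Il27ra), with a median of 0.10 against 0.090 over all genes. The exception to the wider bound was Il24, whose interval reached 1.40. With the swaps turned the intervals would be centred elsewhere, such as on -0.53 for Il34 and 0.91 for Il24. Those intervals were not counted. Of the members' 639 probe values, 12.2% were dim, against 10.3% over all probes; a value was counted as dim where, after subtracting a constant of its array, it matched the log2 of 1 whole number over another, both at most 6, within 0.0015.

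CC chemokines were the largest group, with 12 genes, 9 of them below 0 and 3 above, and a median of -0.12. None passed. All 3 members named above at an unadjusted p under 0.05 belong here. Turning the swaps put 7 above 0 and left 5 below, and the median was then 0.020. No test of the group was made.

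Ccl25, which draws thymocytes and gut-homing T cells through Ccr9, had the smallest p of the family as the ratios were read here. Its log2 ratios ran from -0.78 through a median of -0.43 to 0.031 with treated RNA in Cy5, and from -0.85 through -0.12 to 0.33 on the swaps. It was below 0 on 12 of 15 arrays, and the 2 orientations overlapped. The treatment estimate was -0.30 ± 0.09 (SE, n = 15 arrays; limma, adjusted p = 0.450), a ratio of 0.811. Its turned estimate was -0.11 (adjusted p = 0.542), and Il1rn then had the smallest p of the family. Within the 3 array sets described below it was -0.27, -0.35 and -0.29.

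Ccl6, a chemokine of mouse myeloid cells that binds Ccr1, was narrowly spread. Its values were -0.54 at the lowest, -0.22 at the median and -0.033 at the highest with treated RNA in Cy5, against -0.50, -0.019 and 0.045 on the swaps. All 8 Cy5 arrays were below 0, while 3 of 7 swaps were slightly above. Its estimate was -0.18 ± 0.06 (SE, n = 15; limma, adjusted p = 0.508), and -0.063 with the swaps turned. The neighbouring gene Ccl9, also a Ccr1 ligand, was among the members near 0, at -0.02 ± 0.11, and at 0.065 with the swaps turned.

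Ccl8, a monocyte chemoattractant protein, was above 0 on 12 of 15 arrays. Its values ran from -0.15 through 0.069 to 0.62 with treated RNA in Cy5 and from -0.15 through 0.10 to 0.51 on the swaps, so that both orientations had nearly the same range. The estimate was 0.17 ± 0.07 (SE, n = 15; limma, adjusted p = 0.680), and 0.0070 with the swaps turned. Ccl12, another monocyte chemoattractant, lies next to Ccl8 in the RefSeq gene order of chromosome 11 and was below 0 on 12 of 15 arrays. It ran from -0.45 through -0.20 to 0.36 in Cy5 and from -0.94 through -0.24 to 0.59 on the swaps, with an estimate of -0.16 ± 0.10 (SE, n = 15; adjusted p = 0.764). Adjacent genes of this chemokine cluster thus had estimates on opposite sides of 0, neither passing the test, but with the swaps turned Ccl12 was at 0.032, on the same side as Ccl8. The difference between them was not tested.

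The promoter windows of these 3 genes are shown because Ccl25 and Ccl8 had the smallest p below and above 0, as the ratios were read here, and Ccl12 is the neighbour of Ccl8. Each window is from RefSeq (GRCm38.p6), 250 bases before to 50 bases after a transcription start, 5′ to 3′ on the gene's strand, with TATAAA in capitals. They lie at chr8:4349338-4349637 (plus strand), chr11:82114935-82115234 (plus strand) and chr11:82101595-82101894 (plus strand).
Ccl25: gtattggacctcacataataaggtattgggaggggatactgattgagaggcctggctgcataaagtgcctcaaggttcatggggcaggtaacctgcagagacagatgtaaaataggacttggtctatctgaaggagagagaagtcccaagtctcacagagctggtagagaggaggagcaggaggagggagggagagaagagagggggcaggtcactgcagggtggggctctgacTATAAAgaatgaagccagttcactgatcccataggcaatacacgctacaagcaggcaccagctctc
Ccl8: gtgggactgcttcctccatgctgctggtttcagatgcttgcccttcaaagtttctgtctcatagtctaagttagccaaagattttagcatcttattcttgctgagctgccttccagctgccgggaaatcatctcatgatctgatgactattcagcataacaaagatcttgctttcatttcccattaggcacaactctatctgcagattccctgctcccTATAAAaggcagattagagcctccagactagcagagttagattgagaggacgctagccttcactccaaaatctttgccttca
Ccl12: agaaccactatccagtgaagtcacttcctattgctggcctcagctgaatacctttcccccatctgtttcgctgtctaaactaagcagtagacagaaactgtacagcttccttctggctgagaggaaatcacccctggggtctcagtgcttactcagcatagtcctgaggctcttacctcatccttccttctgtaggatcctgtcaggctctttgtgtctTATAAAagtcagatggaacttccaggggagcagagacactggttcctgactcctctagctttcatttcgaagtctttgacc

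The letters TATAAA begin 32 bases before the start in Ccl8, 31 before it in Ccl12 and 16 before it in the printed window of Ccl25; a further listed start of Ccl25 has none. RefSeq windows were found for 27 of 35 members, 38 windows in all. TATAAA, searched on both strands, was in 15.8% of these windows and in 13.6% of 32851 windows of all genes. The kappaB consensus, the binding motif of NF-kB, was in 15.8% against 5.81%, in Ccl1, Ccl9, Ccl27a, Cxcl1, Ccr6 and Il16, and the STAT motif TTCNNNGAA in 13.2% against 8.30%. Within the 3 printed windows no other motif of the search was found. The estimates of the 6 genes with a kappaB match were on both sides of 0, with 5 below and Ccr6 above; with the swaps turned, Cxcl1 alone of them was below 0. A match is a run of letters and was not measured as a bound site.

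Other CC chemokines varied more between arrays. Ccl27a, a skin chemokine that binds Ccr10, was at -0.37 ± 0.21 (SE, n = 14; limma, adjusted p = 0.761). This was the lowest estimate of the family, but with the swaps turned the gene was at 0.32 and Il34 was lowest. It ran from -0.55 through -0.037 to 0.40 in Cy5 and from -3.30 through -0.16 to 0.024 on the swaps. The value of -3.30 is that of array 15, and without that array the estimate was -0.11. A placeholder on array 12 was set missing for this gene, and near-identical copies of Ccl27a and of Ccl21a in the mouse genome may share their signal.

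Ccl17 and Ccl22, the ligands of Ccr4 on T cells, lie near each other on chromosome 8. Ccl17 ran from -2.66 through 0.55 to 1.09 in Cy5 and from -1.65 through -0.43 to 0.34 on the swaps, with an estimate of -0.29 ± 0.26 (SE, n = 15; limma, adjusted p = 0.828). It was below 0 on 7 of 15 arrays, so the negative mean came with more arrays above 0 than below. The turned estimate of Ccl17 was 0.27. Ccl22 was at -0.04 ± 0.10 (SE, n = 15; limma, adjusted p = 0.942), and at -0.27 with the swaps turned. The 2 genes thus differed in spread, with standard deviations over arrays of 1.09 and 0.463.

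Ccl21a, which brings naive T cells and dendritic cells into lymph nodes through Ccr7, was at -0.21 ± 0.17 (SE, n = 14; limma, adjusted p = 0.820). Its values ran from -2.25 through -0.13 to 0.51 in Cy5 and from -0.68 through -0.028 to 0.36 on the swaps. The lowest came from array 3, and without it the estimate was -0.040; with the swaps turned it was -0.043. Ccl28, a mucosal chemokine, was above 0 on 11 of 15 arrays, at 0.14 ± 0.09 (SE; limma, adjusted p = 0.774). Ccl5, which attracts T cells and monocytes, was above 0 on 9 of 15, at 0.16 ± 0.12 (SE; adjusted p = 0.802), with a highest value of 1.65 on array 15. Without array 15, the estimate of Ccl5 was 0.043. Turned estimates were 0.12 for Ccl28 and -0.13 for Ccl5.

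**Figure D2:**
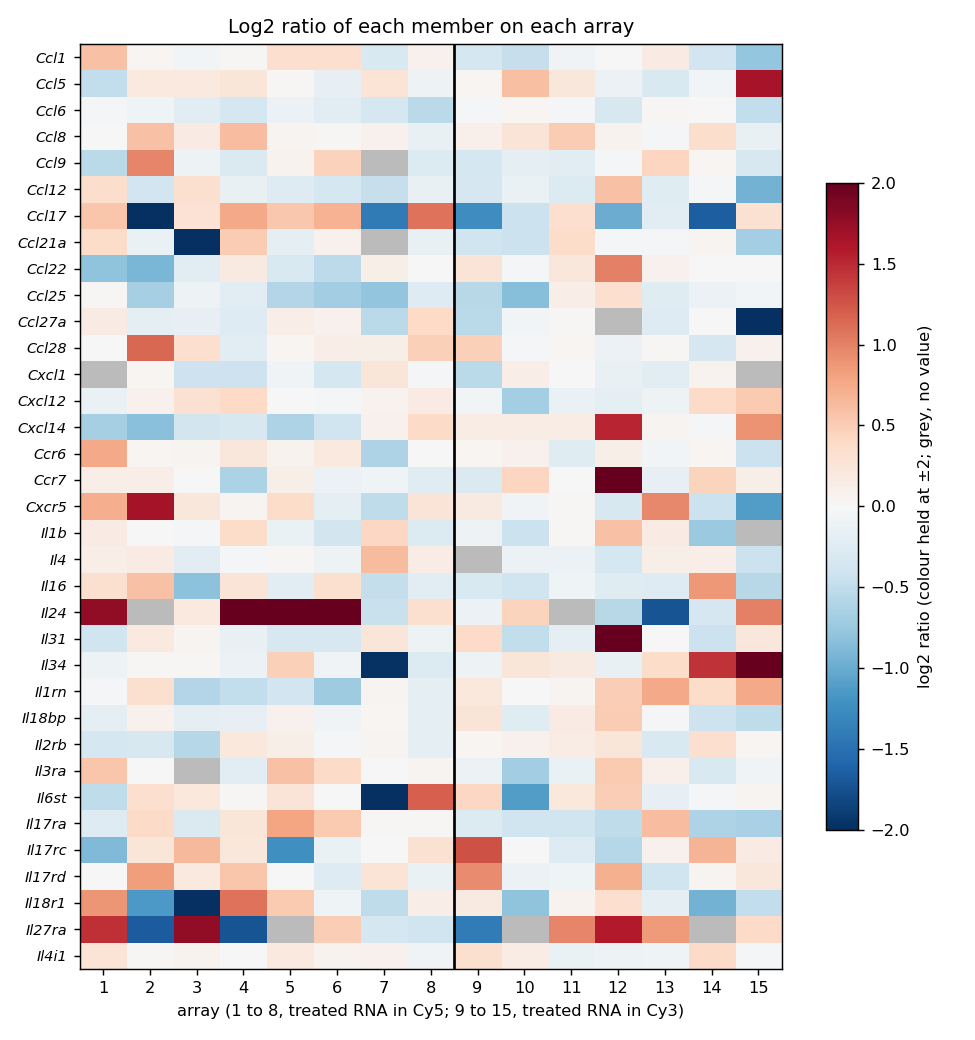
Log2 ratio of each member (rows) on each of the 15 arrays (columns), with arrays of treated RNA in Cy5 left of the line and dye swaps right of it; colour is held at ±2 and grey marks no value. Rows change colour from array to array. Some rows have a single strong cell, such as Ccl27a on array 15 and Ccr7 on array 12. Others, such as Ccl17, Il27ra and Il24, have several, and Il24 is dark on arrays 4, 5 and 6.

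The 3 CXC chemokines lay close to 0. Cxcl1, a neutrophil chemoattractant and textbook NF-kB target, was at -0.13 ± 0.07 (SE, n = 13; limma, adjusted p = 0.761) and below 0 on 9 of 13 arrays. Its range was -0.42 to 0.25 in Cy5 and -0.53 to 0.14 on the swaps, with a median of -0.073 in both. Cxcl12, which holds blood stem cells and B cell precursors in the bone marrow through Cxcr4, was at 0.04 ± 0.08 (SE, n = 15; adjusted p = 0.934). It ran from -0.14 through 0.078 to 0.40 in Cy5 and from -0.68 through -0.11 to 0.53 on the swaps. Cxcl14, an epithelial chemokine, was at 0.04 ± 0.12 (SE, n = 15; adjusted p = 0.962), and its orientations lay on opposite sides of 0, as described further on. Their turned estimates were -0.015 for Cxcl1, 0.072 for Cxcl12 and -0.38 for Cxcl14.

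The 3 chemokine receptors had estimates above 0 and none passed; with the swaps turned, Ccr6 and Cxcr5 were above 0, at 0.075 and 0.22, and Ccr7 below, at -0.23. Ccr7, the lymph node homing receptor, was at 0.14 ± 0.14 (SE, n = 15; limma, adjusted p = 0.841). It ran from -0.64 through -0.040 to 0.14 in Cy5 and from -0.29 through 0.12 to 2.05 on the swaps. The 2.05 was on array 12; without that array the estimate was -0.00038. Cxcr5, which guides B cells to follicles, was at 0.11 ± 0.16 (SE, n = 15; adjusted p = 0.882), from -0.51 through 0.25 to 1.66 in Cy5 and from -1.12 through -0.076 to 0.97 on the swaps. Its widest values were on arrays 2 and 15, and its orientations overlapped. Of the pairs that meet on the arrays, Ccl21a was thus below 0 and its receptor Ccr7 above 0, neither beyond the spread between arrays, and with the swaps turned both were below 0.

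Il24, an IL-10 family cytokine, had the widest spread of the family and the highest estimate under either reading of the swaps. On the arrays with treated RNA in Cy5 it ran from -0.45 through 1.77 to 3.68, with 6 of 7 values above 0. On the swaps it ran from -1.73 through -0.23 to 1.01, with 2 of 6 above 0. The estimate was 0.69 ± 0.33 (SE, n = 13; limma, adjusted p = 0.712) and the standard deviation over arrays 1.59. The turned estimate of Il24 was 0.91 (adjusted p = 0.153). The values above 1.5 were those of arrays 1, 4, 5 and 6, all with treated RNA in Cy5.

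The other interleukins are messengers of innate and T cell immunity. Il34, which activates the macrophage receptor Csf1r, was at 0.28 ± 0.25 (SE, n = 15; limma, adjusted p = 0.828), from -1.98 through -0.082 to 0.47 in Cy5 and from -0.14 through 0.24 to 3.67 on the swaps. Its extremes were on arrays 7 and 15, and without array 15 the estimate was 0.040; with the swaps turned it was -0.53. Il1b, the main secreted IL-1 of inflammation, was at -0.03 ± 0.10 (SE, n = 14; adjusted p = 0.956), from -0.37 through -0.018 to 0.42 in Cy5 and from -0.75 through -0.039 to 0.59 on the swaps. Il4, the cytokine of type 2 helper T cells, was at -0.02 ± 0.07 (SE, n = 14; adjusted p = 0.965) and above 0 on 7 of 14 arrays. Il16, a ligand of CD4, was at -0.09 ± 0.12 (SE, n = 15; adjusted p = 0.876) and below 0 on 10 of 15. For Il1b and Il4 the 95% intervals, -0.24 to 0.18 and -0.17 to 0.13, were among the narrower ones of the interleukins. Il1b was at 0.051, Il4 at 0.11 and Il16 at 0.056 with the swaps turned.

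Receptor chains of interleukins had estimates from -0.22 (Il18r1) to 0.21 (Il27ra), 4 above 0 and 4 below, with a median of 0.011. Turning the swaps gave 3 above 0 and 5 below, and a median of -0.032. Il17rd, a chain related to the IL-17 receptor that also restrains growth factor signalling, was at 0.19 ± 0.10 (SE, n = 15; limma, adjusted p = 0.745). It ran from -0.25 through 0.10 to 0.84 in Cy5 and from -0.39 through 0.061 to 0.94 on the swaps, above 0 on 9 of 15 arrays, and with the swaps turned was at -0.0041. Il2rb, a chain shared by the IL-2 and IL-15 receptors, was at -0.02 ± 0.07 (SE, n = 15; adjusted p = 0.953), and Il3ra, the IL-3 binding chain, at 0.05 ± 0.09 (SE, n = 14; adjusted p = 0.920). The 95% interval of Il2rb was -0.16 to 0.12 and that of Il3ra -0.15 to 0.24. Il2rb was at -0.11 and Il3ra at 0.15 with the swaps turned.

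Il6st, the gp130 chain of the IL-6 and LIF receptors, was at -0.08 ± 0.21 (SE, n = 15; limma, adjusted p = 0.947). LIF signalling through gp130 sustains mouse ES cells in culture. Its values ran from -2.64 through 0.12 to 1.19 in Cy5 and from -1.12 through 0.054 to 0.50 on the swaps; without array 7, which holds the lowest, the estimate was 0.096. Il27ra, the specific chain of the IL-27 receptor, was at 0.21 ± 0.34 (SE, n = 12; adjusted p = 0.895), from -1.73 to 1.78 in Cy5 and from -1.40 to 1.59 on the swaps. Of its 12 values 8 were dim, and the gene could not be fitted without them; nor could Il1b and Il18r1. Turning the swaps placed Il6st at -0.059 and Il27ra at -0.27.

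Il1rn, the antagonist that occupies the IL-1 receptor, was at 0.06 ± 0.09 (SE, n = 15; limma, adjusted p = 0.878), beside Il1b at -0.03; with the swaps turned it was at -0.31. Il4i1, an L-amino acid oxidase induced by IL-4, had the narrowest spread of all members, with a standard deviation over arrays of 0.159. Its estimate was 0.08 ± 0.05 (SE, n = 15; adjusted p = 0.785), and 0.0053 with the swaps turned. The 8 members outside the naming rule were Ccl1, Ccl9, Ccr6, Il31, Il18bp, Il17ra, Il17rc and Il18r1. They ranged from -0.22 to 0.13 with adjusted p from 0.837 to 0.980 in limma, 3 of them above 0. With the swaps turned they ranged from -0.23 (Il31) to 0.25 (Il17ra), with Ccl1 at 0.20. Il31, Il18bp and Il17rc were then below 0 and the others above.

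The orientations were then compared for each member. The dye effect is the mean with treated RNA in Cy5 minus the mean with it in Cy3, and 0.5 times this difference is the treatment estimate with the swaps turned. No member passed limma's test for it, where 2.61% of all genes did. At an unadjusted p under 0.05 there were 6 members, Il1rn, Cxcl14, Ccl22, Il24, Ccl1 and Il17ra, which is 17.1% against 19.5% of all genes. Other settings called a few: 2 members without arrays 7, 8 and 15 (Cxcl14 and Il24), where 5.98% of all genes passed, and 2 with array weights (Il1rn and Il24), where 6.95% did. With genes measured on all 15 arrays, Il1rn passed, as did 3.99% of all genes. With the swaps turned, such a call is a call for the treatment. In the fit reported here, under either reading of the swaps, no member passed the threshold.

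Il1rn came nearest, with a dye effect of -0.63 ± 0.17 (SE; limma, adjusted p = 0.0613). Its values ran from -0.72 through -0.29 to 0.33 in Cy5 and from 0.0090 through 0.36 to 0.76 on the swaps. All 7 swaps were above 0 and 6 of 8 Cy5 arrays below 0, and the ranges overlapped. With 1 of arrays 2 and 7 left out in turn, adjusted p was 0.0433 and 0.0446, and with dim values left out 0.0191, against 1.84%, 4.46% and 3.25% of all genes passing in those fits, so this result lay at the edge of the threshold.

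Cxcl14 had a dye effect of -0.75 ± 0.24 (SE; limma, adjusted p = 0.0975), from -0.84 through -0.38 to 0.38 in Cy5 and from -0.022 through 0.15 to 1.53 on the swaps. Ccl22 had one of -0.53 ± 0.19 (adjusted p = 0.142), from -0.91 through -0.26 to 0.17 in Cy5 and from -0.019 through 0.092 to 1.001 on the swaps. For Cxcl14 and Ccl22, 6 of 7 swaps were above 0 each. Il24 had the largest dye effect, 1.81 ± 0.67 (adjusted p = 0.153). These members were low in Cy5 and high on the swaps except Il24, which was the reverse.

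**Figure D3:**
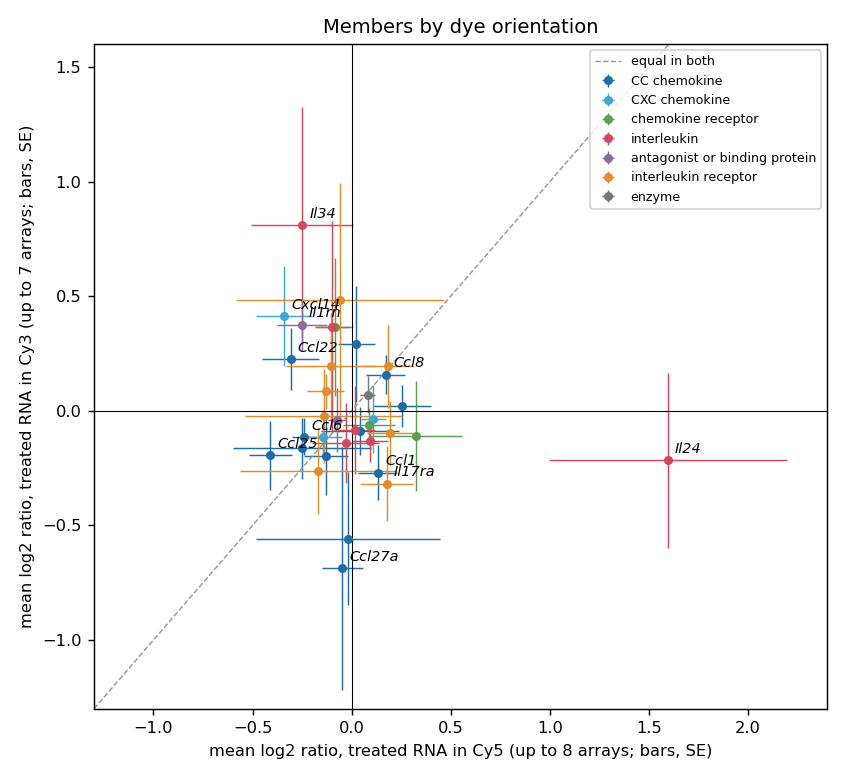
Mean log2 ratio of each member with treated RNA in Cy5 (x axis) and with it in Cy3 (y axis), bars giving the SE over arrays; the dashed line marks equal means. Ccl25, Ccl6 and Ccl8 have the same sign on both axes, whereas Il1rn, Cxcl14, Ccl22 and Il34 lie upper left and Il24, Ccl1 and Il17ra lower right.

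**Figure D4:**
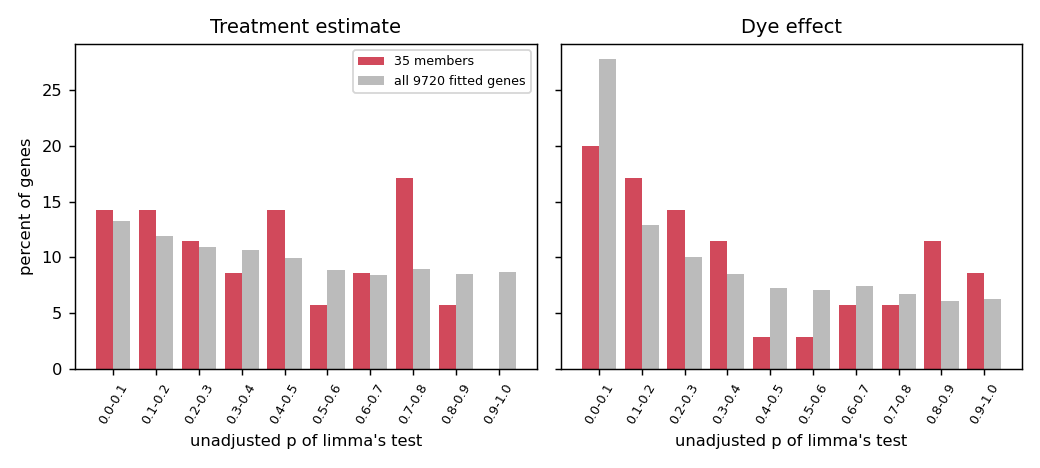
Share of genes (y axis, percent) in bins of 0.1 of the unadjusted p of limma's test (x axis) for the treatment estimate and the dye effect, for the 35 members and all 9720 fitted genes. In the lowest bin there are 5 of 35 members and 1289 of 9720 genes for the treatment estimate. For the dye effect there are 7 of 35 members and 2696 of 9720 genes.

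Separate probes of a gene gave a further view of 6 members. The 3 probes of Il4i1 were all above 0, at 0.07 ± 0.05, 0.10 ± 0.10 and 0.05 ± 0.09 (SE). Those of Il16 were all below 0, at -0.11 ± 0.08, -0.14 ± 0.06 and -0.01 ± 0.32, the last with 8 dim values of 15. Dye effects of these probes lay on both sides of 0: 0.27, -0.017 and -0.22 for Il4i1, and 0.42, -0.0027 and -0.076 for Il16. With the swaps turned, the probes of either gene thus did not share a sign. Over arrays, pairs of Il4i1 probes correlated at r from -0.49 to 0.20 and pairs of Il16 probes at r from -0.029 to 0.19. Both probes of Cxcl14 had a dye effect below 0, at -0.54 ± 0.19 and -0.92 ± 0.38, and their values correlated at r = 0.65 over 14 arrays, which share the hybridisation.

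The remaining genes with several probes were Cxcl12, Il6st and Il1rn. Cxcl12 had probes at 0.02 ± 0.23, -0.04 ± 0.10 and 0.12 ± 0.10 (SE), and the first and second of them had the same sign on 3 of 13 arrays. Il6st had probes at 0.06 ± 0.12 and -0.30 ± 0.34, the lower one with 6 dim values and a lowest value of -4.44. They had the same sign on 9 of 14 arrays, at r = 0.44. Their dye effects were -0.16 and -0.23, so both lay below 0 with the swaps turned. Il1rn had probes at 0.00 ± 0.08 and 0.17 ± 0.23, with the same sign on 4 of 11 arrays. No member probe passed the treatment test over all probes (smallest adjusted p = 0.578 in limma), and none had probes at an unadjusted p under 0.05 on both sides of 0.

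**Figure D5:**
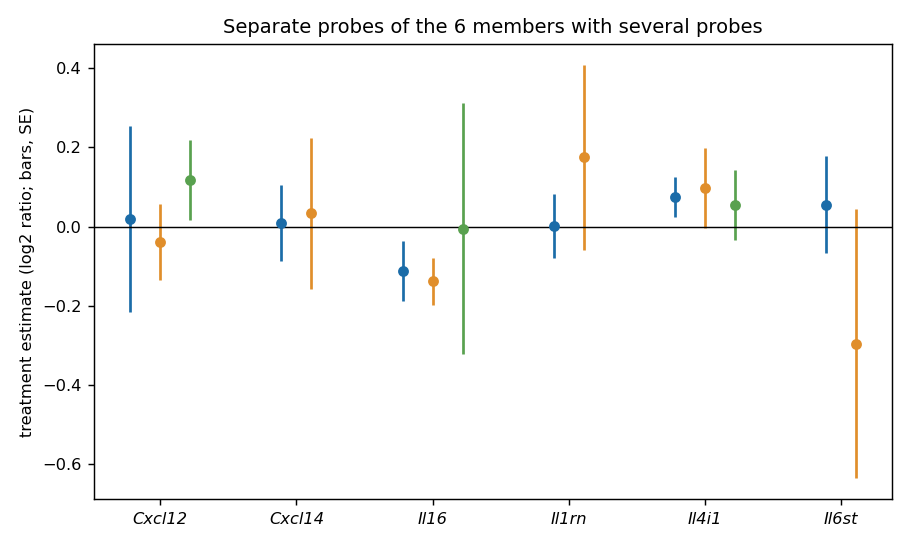
Treatment estimate (y axis, log2 ratio) of each probe of the 6 members with several probes, bars giving the SE from limma; colours tell the probes of a gene apart. As the ratios were read here, the probes of Il4i1 lie above 0 and those of Il16 below, while those of Cxcl12 and Il6st lie on both sides.

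Partners of the family were taken from lists by pathway, and none of their genes passed as the ratios were read here. After the swaps were turned, 1 of 19 fitted genes passed in the IL-1 and Toll list and 1 of 13 among the related cytokines. Their adjusted p in limma was 0.031 and 0.0042. Neither is among the genes named below, which were picked by p as the ratios were read here. In that reading 2.61% of all genes passed. Of JAK-STAT genes, 21 of 27 listed were fitted, 9 above 0 and 12 below, with a median of -0.023; with the swaps turned, 14 were above 0 and the median was 0.032. Stat5a, which carries IL-2, IL-3 and IL-7 signals, had the smallest p of them: from 0.077 through 0.28 to 0.52 in Cy5 and from 0.065 through 0.27 to 0.37 on the swaps, above 0 on all 15 arrays, at 0.26 ± 0.05 (SE; limma, adjusted p = 0.0992), but at 0.022 with the swaps turned. Its relative Stat5b was at 0.16 ± 0.06 (adjusted p = 0.598), and at 0.025 with the swaps turned.

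Signalling genes downstream of chemokine receptors numbered 16 fitted of 27, with 12 above 0 and a median of 0.072, or 11 above 0 and 0.099 with the swaps turned. Rgs2, which shuts off G protein signals, was above 0 on 14 of 15 arrays at 0.27 ± 0.07 (SE; limma, adjusted p = 0.327), and the leukocyte kinase subunit Pik3cg was at 0.14 ± 0.07 (adjusted p = 0.712). In the IL-1 and Toll receptor pathway 19 of 28 were fitted, 13 below 0, with a median of -0.031, or 9 below 0 and 0.050 with the swaps turned. Nfkbia, the inhibitor of NF-kB, was at -0.25 ± 0.08 (adjusted p = 0.477) and the kinase Ikbkb at 0.14 ± 0.07 (adjusted p = 0.712). Rgs2 had a turned estimate of -0.036, Pik3cg of 0.013, Nfkbia of 0.21 and Ikbkb of 0.19.

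Chemokine genes named outside the symbol rule had 6 of 14 fitted, 4 above 0, with a median of 0.0040, or 2 above 0 and -0.057 with the swaps turned; Pf4, a platelet chemokine, was at -0.14 ± 0.07 (SE; limma, adjusted p = 0.743) and Ccrl2 at -0.13 ± 0.08 (adjusted p = 0.764). Related cytokines and shared receptor chains had 13 of 35 fitted, 7 above 0, with a median of 0.010, or 7 and 0.013 with the swaps turned. Among them, Csf2rb2, the mouse beta chain for IL-3, was below 0 on 13 of 15 arrays at -0.22 ± 0.06 (SE; adjusted p = 0.409), beside its partner Il3ra at 0.05 ± 0.09. Tslp was at 0.12 ± 0.07 (adjusted p = 0.764). Csf2rb2 had a turned estimate of -0.061, Tslp of 0.045, Pf4 of 0.022 and Ccrl2 of -0.025.

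Markers of cell types that express these genes were read in the same fit. Of 25 myeloid markers 18 were fitted, 15 below 0 and 3 above, with a median of -0.071. With the swaps turned the sign was the opposite, with 13 above 0, 5 below and a median of 0.072. As the ratios were read here, 4 of 18 had an unadjusted p under 0.05 in limma, all below 0, which is 22.2% against 7.02% of all genes. With the swaps turned, which tests the dye effect, there were 5 of 18, or 27.8% against 19.5% of all genes. In that reading S100a9 alone passed, at 0.31 (limma, adjusted p = 0.0127), where 2.61% of all genes did. The median of the myeloid markers on an array ran from -0.13 through 0.0035 to 0.075 in Cy5 and from -0.23 through -0.15 to 0.0010 on the swaps. The 2 with the smallest p were Camp at -0.30 ± 0.09 and S100a9 at -0.18 ± 0.06 (SE; both adjusted p = 0.496 in limma). The myeloid genes' part in the values of Ccl6 and the other CC chemokines was not tested.

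For the other cell types, the median estimate was 0.0094 over 7 fitted of 17 genes marking B cells, with 4 above 0, and -0.066 over 10 of 23 marking T and NK cells, with 3 above 0. It was 0.032 over 12 of 20 genes of pluripotent cells, with 7 above 0, and 0.061 over 16 of 19 of fibroblasts, with 11 above 0. The turned medians were -0.033 for B cells, 0.014 for T and NK cells, -0.11 for pluripotent cells and -0.012 for fibroblasts. Apart from S100a9, no marker passed under either reading. The smallest p belonged to Blnk and Ebf1 for B cells (0.13 and 0.11), Gata3 and Lat for T cells (-0.22 and -0.07), Esrrb and Pou5f1 for pluripotent cells (0.45 and -0.39), and S100a4 and Col5a1 for fibroblasts (-0.16 and 0.19). These numbers are treatment estimates on the log2 scale. Turned estimates placed Blnk at 0.13, Ebf1 at 0.080, Gata3 at -0.074, Lat at 0.041, Esrrb at -0.28, Pou5f1 at 0.11, S100a4 at 0.063, Col5a1 at -0.088 and Camp at 0.092.

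Arrays fell into 3 sets by technical traits of their values. Set C held arrays 7, 8 and 15, each with at most 50 placeholders. The other arrays were divided by the standard deviation of their values, at least 0.5 on the 8 arrays of set A and under 0.5 on the 4 of set B. These sets were drawn after seeing the data. Within sets A and B 0 members passed limma's test, of 34 and 33 that could be fitted, and neither did any of all genes (0% in each). Set C held 2 arrays with treated RNA in Cy5 and 1 swap, so only its estimates are given, with 31 members fitted. Unadjusted p was under 0.05 for 3, 6 and 6 members, against 6.82%, 9.37% and 8.42% of all genes. Estimates in sets A, B and C were -0.12, -0.084 and -0.47 for Ccl6, 0.27, 0.14 and -0.09 for Ccl8, and 0.03, -0.28 and -0.62 for Ccl12. Ccl25 and Ccl6 kept their sign in all 3 sets, and Ccl8 and Ccl12 did not. Between set B and the fit of all arrays, 17 of 33 members had opposite signs.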

How the data were processed

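Log2 ratios of 2 channels for 20205 probes on 15 arrays were used as deposited by the authors; the sources used here do not give background correction, normalization or ratio direction, and scanner intensities were not used here. Values above 10 in absolute log2 were set missing as placeholders. Each array gave 19213 to 19973 values, with medians from -0.019 to 0.063. Symbols came from the platform annotation (1 symbol for 13891 probes, several for 5, none for 6309), updated through 13855 identifiers of RefSeq GRCm38.p6; probes were averaged per gene. Genes with values on at least 4 arrays per orientation were fitted with limma 3.58.1 in R 4.3.3 (lmFit, eBayes) with a dye term, over all genes, and tested on simulated data. Tests were two-sided. Named members are the 6 smallest p on each side of 0, the 3 smallest dye p, the 5 widest spreads and a set of lymphoid and blood genes (27 in all); pathway genes are the 2 smallest p per list. Members and lists were chosen with earlier results of these data known. Alternatives covered direction, arrays, normalization, weights, filters, dim values, probes and array sets, the last added after seeing the data.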

Additional observations from a re-analysis of the deposited data

Results flagged for a closer look

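In 12 of 70 groups of 5 to 8 arrays (each member in each orientation), the highest or lowest array stood apart by Dixon's criterion. Chance meets it in about 1 of 20 groups if values are normally distributed. The share of such groups over all genes was not counted, so the 12 cannot be read as particular to the members. On array 12, a dye swap, these were Ccr7 at 2.051, Il31 at 3.051 and Ccl22 at 1.001. Without that array the treatment estimates were -0.00038 for Ccr7, -0.091 for Il31 and -0.11 for Ccl22, against 0.14, 0.13 and -0.041 with it. On array 7 they were Il6st at -2.644, Il34 at -1.979 and Il4 at 0.63, with estimates of 0.096, 0.40 and -0.057 without it. Array 15 held Ccl27a at -3.296 and Il34 at 3.669, with estimates of -0.11 and 0.040 without it.

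The rest were single values: Ccl21a on array 3 at -2.25 (estimate -0.040 without it), Il6st on array 10 at -1.123 (0.0094), Il17ra on array 13 at 0.621 (-0.15) and Il16 on array 14 at 0.86 (-0.17). None of these estimates passed limma's threshold with or without the array. Arrays 7 and 15 belong to the set with few placeholders, and what sets these values apart was not tested.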

How the results depend on the processing

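As the ratios were read here, no member passed limma's treatment test under the alternatives listed next. These were each orientation alone, no dye term, median centring, quantile normalization, scaling, array weights and other filters on missing values. Further ones were placeholders kept, dim values left out, the most measured probe, single probes, array sets A and B, and each array left out. With the swaps turned, no member passed under the settings of the reported fit. The family median, not computed for single probes, ran from -0.063 to 0.024, in each case less than 0.0445, the standard deviation of its array medians, from the -0.019 of the reported fit. The dye effect is the treatment test with the swaps turned, and there a few members passed under other settings. The count was 2 without arrays 7, 8 and 15 (Cxcl14 and Il24, 5.98% of all genes) and 2 with array weights (Il1rn and Il24, 6.95%). It was 1 with values on all 15 arrays (Il1rn, 3.99%) and 1 with dim values left out (Il1rn, 3.25%). In the reported fit no member passed, against 2.61% of all genes. With each array left out the count ran from 0 to 1. Causes were not tested. Signs were less stable: turning the swaps changed 19 of 35, some of the largest estimates (Ccl27a, Ccl17 and Il34) among them. With placeholders kept, Ccl27a was at -1.53 and Il27ra at 1.23. No paired analysis was possible because the labels number the arrays 1 to 15 without pairs; title numbers n and n + 8 as a random replicate block gave 0 members, with a block correlation of -0.0086. Signal over background is unknown, which limits dim members such as Il27ra.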
